A study of Mus musculus with 8 samples.

Results

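The 8 genes described here encode the replacement variants of histones H2A and H3, the forms that stand in for the S-phase histones in chromatin: H2afz and H2afv for H2A.Z, H2afx for H2A.X, H2afj for H2A.J, H2afy and H2afy2 for macroH2A, and H3f3a and H3f3b for H3.3. They were chosen by name, and all 8 were found among the 17488 genes of the table and passed the filter on low values. Their transcripts were measured by RNA sequencing of whole intra-abdominal neuroblastomas from 8 TH-MYCN homozygous mice, in which the tyrosine hydroxylase promoter drives human MYCN in cells of the sympathetic lineage. All 8 animals carried the transgene, and dosing began at about 6 weeks of age with tumours of 200 to 300 mm3. In 4 animals the agent was panobinostat, an inhibitor of the zinc-dependent histone deacetylases, at 5 mg/kg in 2 doses 24 h apart, and 4 animals received vehicle. Collection followed 4 h after the last dose. A library holds 1 whole tumour, stroma included. The comparison asks which variant histone transcripts differed after about a day of deacetylase inhibition.

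Most H2A and H3 protein is made in S phase from clustered genes whose messages end in a stem-loop without a poly(A) tail. Replacement variants are made from dispersed genes, mostly with polyadenylated messages, and are placed in chromatin outside replication by dedicated chaperones and remodellers. H2A.Z flanks transcription start sites, H2A.X is phosphorylated beside DNA breaks, macroH2A carries a large extra domain and is found in repressed chromatin such as the inactive X chromosome, and H3.3 is placed at active genes by HIRA and at telomeres and pericentric repeats by ATRX with DAXX. ATRX, one of these H3.3 depositors, is recurrently mutated in human neuroblastoma.

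In panobinostat-treated tumours 6 of the 8 variant genes fell, 1 rose and 1 did not pass the test (limma on the log2 values, Benjamini-Hochberg adjusted p under 0.05 over all 16157 genes tested). H2afy2 had the largest change, to a level 5.50-fold lower, followed by H2afz at 2.25-fold lower, while H2afj was 2.18-fold higher. Over all tested genes 63.7% were called, 32.4% as lower and 31.2% as higher, so a call by itself was the usual outcome in this comparison. The median log2 change was -0.58 over the 8 genes and -0.022 over all tested genes. In 8 of the 8 genes the 4 values of one group lay wholly to one side of the other group's, which was so for 59.7% of tested genes. In a test against a 1.5-fold change, 3 of the 8 (H2afz, H2afj and H2afy2) were called, against 30.9% of all tested genes. Whether fewer cells of a type or less RNA per cell lies behind a lower level cannot be told apart in whole tumours.

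**Figure D1:**
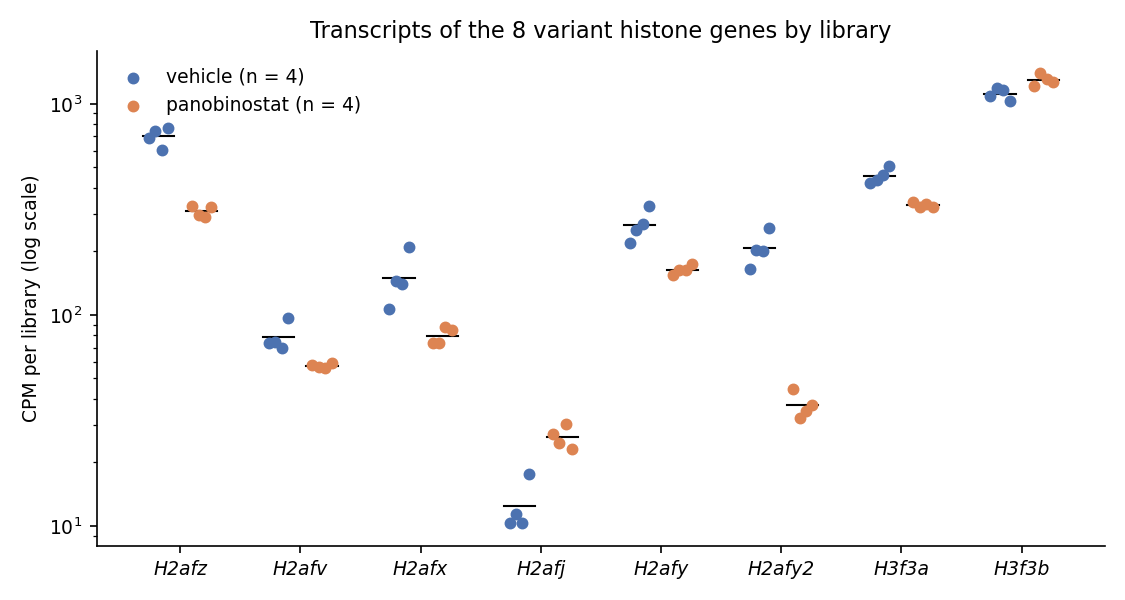
Each point is the level of a gene in 1 library, in CPM (reads scaled to library size) on a log axis, with 4 vehicle and 4 panobinostat libraries per gene and a line at the group mean. H2afy2 spans 164.6 to 258.5 CPM with vehicle and 32.5 to 44.4 with panobinostat, and H2afj lies lowest on the axis in both groups.

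The 8 libraries held 18664066 to 23830026 reads over the listed genes, and the variant genes had between 231 reads (H2afj) and 27354 reads (H3f3b) in a library. Vehicle library 4 had the highest value of its group for 7 of the 8 genes and the lowest for H3f3b, and its effective library size was 0.888 times its read total, the lowest such ratio among the 8. Without this library, 6 of the genes were still called lower and 1 higher. The ratio was 0.888 to 0.977 in the vehicle libraries and 1.004 to 1.034 in the panobinostat libraries, so the scaling of the deposited values differed with the treatment. Of 9 sympathoadrenal markers listed for the tumour cells, 6 fell and 3 did not pass, where 32.4% of all tested genes fell and 31.2% rose. The summed level of the 9 was 1973 to 2939 CPM with vehicle and 1030 to 1175 with panobinostat. Transcripts of other cells were higher with panobinostat, with summed levels going from a range of 573 to 1070 CPM to one of 2716 to 4842 for 10 macrophage markers (9 rose) and from 1508 to 4866 CPM to 8372 to 15177 CPM for 9 fibroblast and mural markers (9 rose). Sums for Schwann cell (6 genes, 15.7 to 49.2 against 49.6 to 260.8 CPM), adipocyte (3 genes, 17.8 to 506.7 against 776.7 to 1039) and adrenal cortex markers (6 genes, 8.87 to 11.4 against 38.8 to 2726) were also higher in every panobinostat library, as were those of 4 liver genes (2.87 to 5.54 against 11.97 to 6984) and 4 pancreas genes (6.62 to 12.8 against 13.9 to 1790). Sums overlapped between groups for endothelial markers (5 genes, 70.8 to 382.3 against 210.6 to 350.1), lymphocyte markers (5 genes, 1.57 to 23.0 against 1.94 to 7.57) and the 1 kidney marker in the table (0.022 to 0.643 against 0.022 to 190.7). No marker was at 0 reads in every library of the vehicle group. All 17 proliferation genes fell, with a summed level of 5525 to 6382 CPM with vehicle and 2035 to 2462 with panobinostat. The part that these shifts in cell make-up and division play in the values of the variant genes was not tested.

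Compared per kilobase of annotated exon, the vehicle tumours held most of H2afz (394.2 ± 40.4 CPM per kb, mean ± SD, n = 4) and H3f3b (375.0 ± 24.0), whose ranges overlapped. H3f3a (130.2 ± 10.97), H2afx (108.4 ± 31.1) and H2afy2 (95.03 ± 17.8) came next, each overlapping its neighbour in that order. H2afv (48.1 ± 7.52) and H2afy (39.2 ± 6.67) overlapped too, and H2afj was lowest at 6.77 ± 1.90 CPM per kb. With panobinostat H3f3b stood alone at the top at 435.4 ± 26.1, H2afz followed at 174.5 ± 10.8, and H2afy2 had moved from the fifth place to the seventh at 17.2 ± 2.35 CPM per kb. In that group H2afy2 and H2afj (14.4 ± 1.71) were the one pair of neighbours whose ranges overlapped. Per length of the longest annotated transcript, H2afz (654.8 CPM per kb) and H3f3b (443.9) no longer overlapped with vehicle, and H2afy lay above H2afv in both groups.

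**Figure D2:**
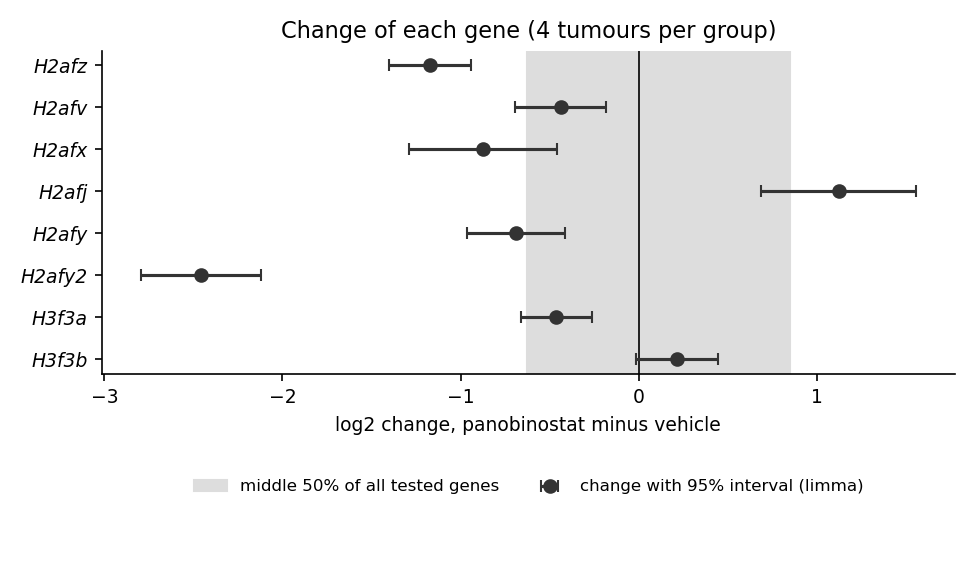
Points give the log2 change of each gene, panobinostat minus vehicle, with its 95% interval from limma (4 tumours per group), and the grey band holds the middle 50% of all tested genes. H2afy2, H2afz, H2afx, H2afy and H2afj have estimates outside the band, and the interval of H3f3b reaches from -0.016 to 0.45.

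H2A.Z is encoded by H2afz (ENSMUSG00000037894, chromosome 3, 137864487 to 137866922, mm10) and H2afv (ENSMUSG00000041126, chromosome 11, 6427229 to 6444443), whose proteins differ at only a few residues. Their coding sequences are 79.2% identical over 384 bases, with no identical run above 14 bases, and so reads inside them can be assigned to one gene or the other. The stretch with the most differences, coding bases 43 to 132 from the start codon in the GENCODE M21 transcripts, is shown for this reason, with the 23 differing bases in capitals.
H2afz: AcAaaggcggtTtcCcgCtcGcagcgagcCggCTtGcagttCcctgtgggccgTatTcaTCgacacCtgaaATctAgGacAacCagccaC
H2afv: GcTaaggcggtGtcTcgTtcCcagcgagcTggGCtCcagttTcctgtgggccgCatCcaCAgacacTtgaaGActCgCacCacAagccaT
The other risk of shared reads lies elsewhere: 33.2% of the 50-base windows of the H2afz transcript also occur in transcripts of 4 other annotated genes, against 0% for H2afv. One transcript per gene was searched. How reads with several matches were counted is not given in the sources used here, so the levels of H2afz, and the shares and sums that hold it, are uncertain to that extent.

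H2afz stood at 688, 740.1, 604 and 768 CPM in vehicle libraries 1 to 4 and at 329, 296.1, 291 and 324 in panobinostat libraries 1 to 4. The highest panobinostat value was well below the lowest vehicle value. The gene fell by 1.17 on the log2 scale (SE 0.10, 95% interval -1.40 to -0.94, n = 4 per group, adjusted p = 1.87e-05, limma). H2afv was measured at 73.2, 74.4, 69.9 and 96.8 CPM with vehicle and 58.0, 56.8, 56.0 and 59.3 with panobinostat. Its vehicle values were close together apart from library 4, and all lay above the panobinostat values. It fell by 0.44 (SE 0.11, 95% interval -0.69 to -0.18, adjusted p = 0.00766, limma), with a log2 change of -0.33 without vehicle library 4. The call for H2afv was lost when panobinostat libraries 3 and 4, those with the highest sums of adrenal cortex and liver markers, were left out (-0.44, adjusted p = 0.0628, limma). The log2 change was the same to 2 digits with and without them, and fewer libraries entered that test.

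The pair together made up 674 to 864 CPM per library with vehicle and 347 to 387 with panobinostat. This sum was 2.11-fold lower (exact permutation, two-sided, p = 0.0286 and 0.0429 adjusted over 3 sums; with 70 assignments no p can be smaller than 0.0286). H2afz supplied 89.9% ± 0.90 of the pair's reads with vehicle and 84.3% ± 0.55 with panobinostat (mean ± SD, n = 4). On the log2 scale the ratio of H2afz to H2afv went from 3.16 ± 0.14 to 2.43 ± 0.06, a difference of -0.73 (two-sided exact permutation p = 0.0286, and 0.0286 adjusted over 3 pairs). A ratio within a library does not depend on a single scaling factor for that library.

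H2afx (ENSMUSG00000049932, chromosome 9, 44334694 to 44336077) encodes H2A.X, whose C-terminal serine is phosphorylated by ATM, ATR and DNA-PK at DNA breaks, and its gene yields both a stem-loop message and a polyadenylated one. It was measured at 106.6, 144.4, 139.9 and 209.4 CPM with vehicle and at 73.6, 73.2, 87.4 and 84.8 with panobinostat. The vehicle libraries were spread widely, with library 1 lowest and library 4 highest, and even the lowest exceeded every panobinostat library. H2afx fell by 0.87 (SE 0.18, 95% interval -1.29 to -0.46, n = 4 per group, adjusted p = 0.00253, limma), with a log2 change of -0.70 without vehicle library 4. Some of its sequence recurs, mostly in clustered H2A genes, with 6.14% of its 50-base windows shared among 21 other genes.

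H2afj (ENSMUSG00000060032, chromosome 6, 136808244 to 136810074) encodes H2A.J, a mammalian H2A variant known to build up in senescent cells with lasting DNA damage, and it was the one gene of the 8 that rose. It was measured at 233, 231, 233 and 371 reads with vehicle, or 10.3, 11.4, 10.4 and 17.6 CPM. The panobinostat libraries held 609, 477, 635 and 456 reads, or 27.3, 24.7, 30.4 and 23.3 CPM. Vehicle library 4 lay nearest to the panobinostat libraries but did not reach them. The rise was 1.12 on the log2 scale (SE 0.19, 95% interval 0.69 to 1.56, n = 4 per group, adjusted p = 7.96e-04, limma), and 1.30 without vehicle library 4. Shared sequence is small here, at 2.24% of 50-base windows. H2afx and H2afj thus moved in opposite directions although their coding sequences are 89.4% identical, with an identical run of 51 bases.

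The regions just before the starts of H2afz and H2afv, which fell, and of H2afj, which rose, are shown because the CCAAT box is present in each. They are RefSeq sequences of build GRCm38.p6, of 250, 250 and 246 bases, at chr3:137864237-137864486 on the plus strand, chr11:6444444-6444693 on the minus strand and chr6:136807998-136808243 on the plus strand, and each ends before the start in both annotations. Capitals mark CCAAT, or ATTGG where it lies on the other strand, and CACGTG in H2afz.
H2afz: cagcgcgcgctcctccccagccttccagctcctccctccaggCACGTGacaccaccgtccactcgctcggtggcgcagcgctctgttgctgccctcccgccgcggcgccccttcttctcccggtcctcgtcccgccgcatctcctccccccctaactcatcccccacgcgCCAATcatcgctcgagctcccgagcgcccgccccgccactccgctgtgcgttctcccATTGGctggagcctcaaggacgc
H2afv: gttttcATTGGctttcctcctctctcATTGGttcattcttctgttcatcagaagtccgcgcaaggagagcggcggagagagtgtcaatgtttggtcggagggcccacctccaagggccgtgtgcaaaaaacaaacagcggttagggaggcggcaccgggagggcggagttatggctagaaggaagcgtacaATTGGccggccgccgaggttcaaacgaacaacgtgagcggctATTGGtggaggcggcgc
H2afj: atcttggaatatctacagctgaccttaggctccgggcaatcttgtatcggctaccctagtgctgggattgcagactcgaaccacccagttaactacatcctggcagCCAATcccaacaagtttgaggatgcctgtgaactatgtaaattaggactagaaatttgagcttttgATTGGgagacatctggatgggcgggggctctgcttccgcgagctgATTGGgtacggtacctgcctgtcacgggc
CCAAT on either strand was found 2 times before H2afz, 4 times before H2afv and 3 times before H2afj. Of the 7 variant genes matched in the RefSeq table, 5 had it within 250 bases, as did 33.8% of 32851 promoters. H3f3b had 4 copies and H3f3a had 1, and H2afy and H2afy2 had none. For these 4 genes the RefSeq start lies inside the GENCODE gene, so that their windows fall within the annotated gene and not before it. The GC box GGGCGG on either strand, not marked above, was likewise found for 5 of the 7, H2afz, H2afv and H2afj among them, and for 32.7% of all promoters. The E-box CACGTG, which MYC proteins bind, was found before 1 of the 7, H2afz, and before 6.02% of all promoters, and TATAAA before 1, H3f3b, and 12.4%. TTTCGCGC and TTTGGCGC, forms of the E2F site, and the cyclic AMP response element TGACGTCA were before none of the 7 and before 0.256%, 0.417% and 1.55% of all promoters. These matches are letters in a window and were not tested for use.

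Both macroH2A genes fell, H2afy2 by more than any other of the 8 and H2afy by less than H2afz and H2afx. H2afy (ENSMUSG00000015937, chromosome 13, 56073619 to 56136361) encodes macroH2A1, and H2afy2 (ENSMUSG00000020086, chromosome 10, 61738665 to 61784147) encodes macroH2A2. The splice forms of macroH2A1 cannot be told apart in values per gene. H2afy was measured at 219.5, 251.3, 268.2 and 327.7 CPM with vehicle and at 155.0, 163.4, 163.1 and 173.3 with panobinostat. The panobinostat libraries agreed within a narrow range below all vehicle libraries. H2afy fell by 0.69 (SE 0.12, 95% interval -0.96 to -0.42, n = 4 per group, adjusted p = 9.22e-04, limma), or by less after quantile normalization (-0.37, adjusted p = 0.00453, limma). H2afy2 was measured at 164.6, 203.1, 200.5 and 258.5 CPM with vehicle and at 44.4, 32.5, 35.1 and 37.6 with panobinostat. It fell by 2.46 (SE 0.15, 95% interval -2.80 to -2.12, adjusted p = 5.36e-06, limma), and 0.576% of tested genes had a lower log2 change.

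From vehicle to panobinostat the share of H2afy2 among macroH2A reads went from 43.6% to 18.6%. These reads were not scaled to length, and H2afy has 6809 annotated exon bases against 2175 for H2afy2. Per kb of exon, H2afy2 lay above H2afy with vehicle (95.03 against 39.2 CPM per kb) and below it with panobinostat (17.2 against 24.0). Shares and sums of reads are therefore not those of transcripts. The log2 ratio of H2afy to H2afy2 was 0.42, 0.31, 0.42 and 0.34 in vehicle tumours and 1.805, 2.33, 2.22 and 2.21 in panobinostat tumours. It was close to constant with vehicle, and panobinostat library 1 had the smallest shift. The difference was 1.77 (two-sided exact permutation p = 0.0286, and 0.0286 adjusted over 3 pairs), the widest divergence of the 3 pairs. Summed macroH2A reads fell from 384 to 586 CPM to 196 to 211, a 2.33-fold lower level (exact permutation p = 0.0286, and 0.0429 adjusted over 3 sums). Their coding sequences are 70.7% identical, and in the transcript of each with the longest coding stretch, 0 of 1997 windows of 50 bases for H2afy and 6.68% for H2afy2 recur in another gene, for H2afy2 the processed pseudogene H2afy3. The gene span of H2afy2 overlaps that of Aifm2, on the opposite strand, over 596 bases. Aifm2 rose in the same tumours (105 to 473 reads with vehicle, 817 to 1209 with panobinostat, log2 change 2.37, SE 0.42, adjusted p = 9.13e-04, limma), and whether reads were assigned by strand is not given in the sources used here.

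Of the H3.3 genes, H3f3a fell and H3f3b did not pass, and their summed levels overlapped between groups. H3f3a (ENSMUSG00000060743, chromosome 1, 180800832 to 180813943) and H3f3b (ENSMUSG00000016559, chromosome 11, 116021912 to 116027962) encode the same protein from coding sequences that are 76.7% identical over 408 bases. Coding bases 130 to 219, the stretch with the most differences, are shown to make plain how transcripts for one protein can be counted apart, with the 26 differing bases in capitals.
H3f3a: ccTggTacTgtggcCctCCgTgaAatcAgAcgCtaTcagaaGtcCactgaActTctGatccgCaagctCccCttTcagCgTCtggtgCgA
H3f3b: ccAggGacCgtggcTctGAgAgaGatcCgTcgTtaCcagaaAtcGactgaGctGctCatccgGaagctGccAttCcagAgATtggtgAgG
H3f3a shares 14.9% of its 50-base windows with 38 other annotated genes, several of them processed pseudogenes such as H3f3a-ps2, and H3f3b shares 8.40% with 3. The same limit on reads with several matches holds for both genes, their shares and their sum.

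H3f3a was measured at 421, 435, 461 and 508 CPM with vehicle and at 341, 323, 334 and 323 with panobinostat. All 4 treated libraries lay below all controls. It fell by 0.46 (SE 0.088, 95% interval -0.66 to -0.26, n = 4 per group, adjusted p = 0.00143, limma), but did not pass after quantile normalization (-0.13, adjusted p = 0.117, limma). H3f3b, the gene with the most reads of the 8, was measured at 1084, 1183, 1166 and 1030 CPM with vehicle and at 1209, 1395, 1308 and 1272 with panobinostat. The groups did not overlap, yet the gap between vehicle library 2 and panobinostat library 1 was small. Its log2 change was 0.22 (SE 0.10, 95% interval -0.016 to 0.45, adjusted p = 0.0933, limma), and it passed with libraries scaled to their read totals (0.33, adjusted p = 0.0191) but not with libraries centred on their medians (0.099, adjusted p = 0.46).

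The share of H3.3 reads that came from H3f3b was 70.9% with vehicle and 79.7% with panobinostat. The log2 ratio of H3f3a to H3f3b went from -1.29 ± 0.19 to -1.97 ± 0.12 (mean ± SD, n = 4), a difference of -0.68 (two-sided exact permutation p = 0.0286, and 0.0286 adjusted over 3 pairs, but 0.0571 after quantile normalization). Both genes together supplied 1505 to 1627 CPM with vehicle and 1549 to 1718 with panobinostat. These ranges overlapped, and the log2 difference of 0.048 did not pass (exact permutation p = 0.286, and 0.286 adjusted over 3 sums). Its sign changed with libraries centred on their medians (-0.069), and it was 0.15 after quantile normalization and 0.17 with libraries scaled to read totals (exact permutation p = 0.143 and 0.0571).

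**Figure D3:**
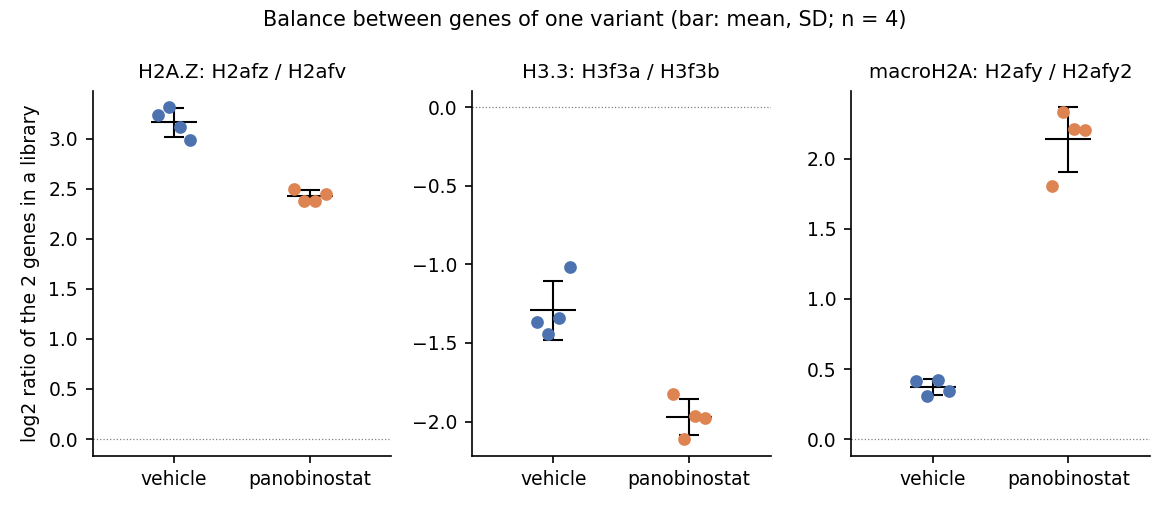
Each point is the log2 ratio of the first to the second named gene in 1 library, with the mean and SD of 4 libraries as bars and a separate axis for each variant. The H2afz to H2afv and H3f3a to H3f3b ratios are lower in all 4 panobinostat libraries than in any vehicle library, and the H2afy to H2afy2 ratio is higher.

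Genes for the machinery that places, removes, modifies or reads these variants were taken from a list of 47, all of which were tested. The list was drawn up with earlier results of these data known. Of these 34 fell, 3 rose and 10 did not pass, and their median was -0.78 on the log2 scale, against -0.022 over all tested genes, of which 32.4% fell and 31.2% rose. In a test against a 1.5-fold change 16 of the 47 were called, 15 lower and 1 higher, against 30.9% of all tested genes (2802 higher and 2186 lower). Among 12 genes of the SRCAP and p400 complexes, which exchange H2A for H2A.Z, 10 fell and 0 rose, with a median of -0.93. Srcap, the ATPase that gives its complex its name, fell by 2.29 (SE 0.13, adjusted p = 4.91e-06, limma), from 6.13 ± 0.18 to 3.84 ± 0.17 log2 CPM (mean ± SD, n = 4). Brd8, a bromodomain subunit of the p400 complex, fell by 1.59 (SE 0.11), and Epc1, a scaffold of the same complex, by 1.55 (SE 0.11). Of the 2 that did not pass, Znhit1 was at -0.33 (SE 0.16) and Actr6 at 0.01 (SE 0.10).

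Removal and reading of H2A.Z was represented by 4 genes, of which 3 fell, against 32.4% of all tested genes. Anp32e, the chaperone that takes H2A.Z out of nucleosomes, fell by 1.24 (SE 0.09) and the remodeller gene Ino80 by 1.11 (SE 0.09). Pwwp2b rose by 1.67 (SE 0.14), whereas its relative Pwwp2a, a reader of H2A.Z, changed by -1.09 (SE 0.10).

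Of 8 genes for deposition and reading of H3.3, 5 fell and 0 rose, where 32.4% of all tested genes fell and 31.2% rose. Zmynd11, a reader of trimethylated lysine in H3.3, fell by 1.09 (SE 0.07), the chaperone gene Hira by 0.94 (SE 0.11) and its partner gene Ubn2 by 0.69 (SE 0.12). Atrx (-0.69, SE 0.33), Asf1a (-0.18, SE 0.13) and Cabin1 (-0.11, SE 0.11) did not pass. In the replication-coupled route for the other H3 forms, with the FACT chaperone, 6 of 7 genes fell and 0 rose, among them the H3 chaperone gene Nasp (-1.54, SE 0.11) and the FACT genes Ssrp1 (-1.26, SE 0.11) and Supt16 (-0.83, SE 0.10).

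Among 11 genes that phosphorylate H2A.X or act on that mark, 7 fell and 1 rose, against 32.4% lower and 31.2% higher over all tested genes. Eya1, a phosphatase of the tyrosine mark on H2A.X and a transcriptional cofactor, fell by 2.61 (SE 0.15), as did the ubiquitin ligase gene Rnf168 (-0.95, SE 0.10) and Baz1b (-0.84, SE 0.11), which encodes the kinase of that tyrosine. The related phosphatase gene Eya3 was the one that rose, by 0.80 (SE 0.11). The kinase genes Atm (-0.25, SE 0.11), Atr (0.12, SE 0.16) and Prkdc (0.25, SE 0.14) did not pass. Of 5 genes for macroH2A partners and splicing 3 fell and 1 rose. Spop, an adaptor of the ligase that ubiquitinates macroH2A1, rose by 0.54 (SE 0.10). The cullin gene of that ligase, Cul3, fell by 0.61 (SE 0.13) and the macrodomain remodeller gene Chd1l by 1.30 (SE 0.28). The splicing gene Qk did not pass (0.36, SE 0.16).

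**Figure D4:**
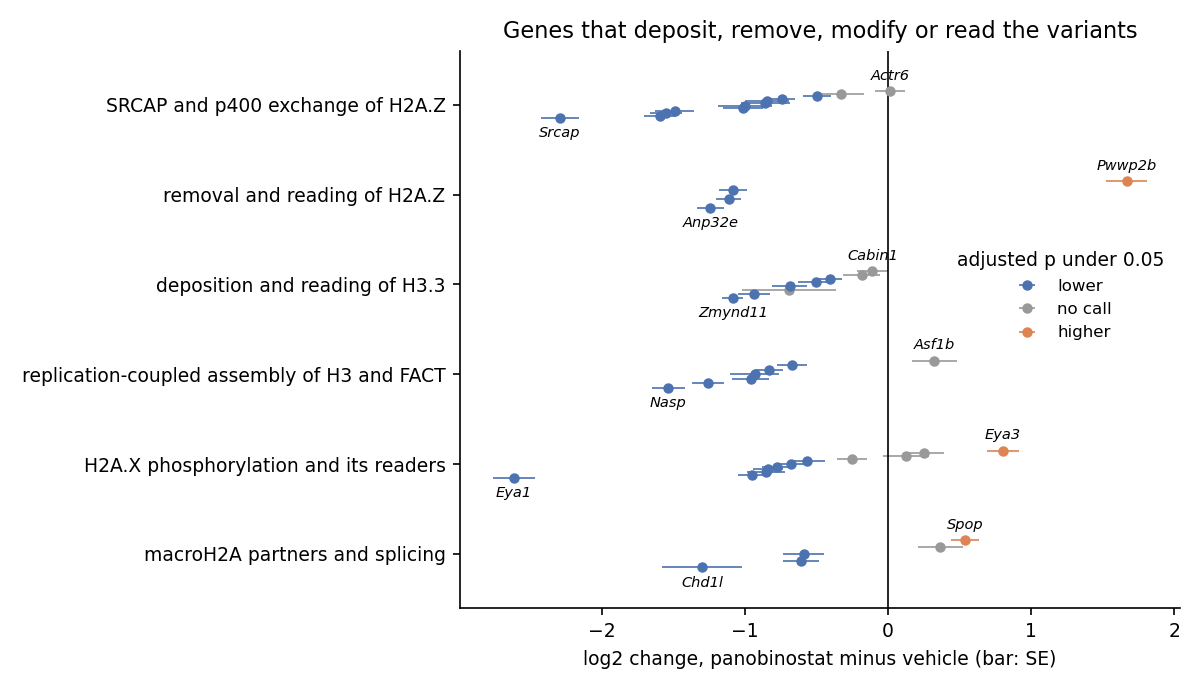
Points are the log2 changes of the 47 machinery genes with their SE, grouped by role and coloured by call at an adjusted p under 0.05, with the lowest and highest gene of each group named. The values run from -2.61 (Eya1) to 1.67 (Pwwp2b), and 34 of the 47 are called lower.

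Other histone genes in the same tumours gave other counts. The centromeric H3 variant gene Cenpa (-1.58, SE 0.12) and its chaperone gene Hjurp (-1.82, SE 0.11) fell. Of 15 tested clustered core histone genes 9 rose and 1 fell (median 0.99 on the log2 scale), and of 7 linker histone genes 6 rose and 1 fell (median 2.22). Over all tested genes 31.2% rose and 32.4% fell. The 18 listed clustered genes together held only 37.9 to 56.1 CPM with vehicle and 65.6 to 87.2 with panobinostat. Some genes of both sets lay under 1 CPM in every vehicle library, such as Hist1h4i at 12 to 18 reads and Hist1h1d at 8 to 15 reads. They passed the filter only through the panobinostat libraries, so a rise was the only direction they could show. The counts and medians of both sets were therefore fixed in part by the filter. Most messages of clustered genes lack a poly(A) tail, and how well the libraries captured them was not tested. The difference between the clustered or linker genes and the replacement variants was not tested.

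Across the 8 libraries the 6 genes that fell were positively correlated with each other, with Pearson's r from 0.88 (H2afz with H2afx) to 0.99 (H2afz with H2afy2). Both groups enter these values, which therefore carry the difference between groups. By the same measure the genes most like H2afz were Cdc20 (r = 0.9989), an activator of the anaphase-promoting complex, and Cenpa (r = 0.9985), and those most like H2afy2 were Dph3 (r = 0.9995) and Spock2 (r = 0.9989). Thoc6 and Foxk2 were nearest to H2afy (r = 0.999 and 0.998), Hspbp1 and Efna2 to H2afx (r = 0.996 and 0.995), and Pafah1b3 and Bcl7c to H3f3a (r = 0.996 for both). Rps6-ps1 and Gm14165 were nearest to H2afv (r = 0.993 and 0.992), and Mob3a and Zdhhc5 to H2afj (r = 0.995 for both). H3f3b was nearest to Onecut3 (r = 0.975) and Igsf10 (r = 0.968), with 77 genes above an r of 0.9, while each of the other 7 genes had between 1130 and 3393 such genes, so that a high value was common.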

How the data were processed

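Values were deposited by the authors as log2 CPM, 1 per gene and library, with 0.5 reads added to each count and an effective library size, as the values show: 100% gave whole reads within a tolerance of 0.001 read. The submitters' processing notes name mm10, CASAVA 1.8.2, HTSeq, TopHat2 and limma. For annotation, strandedness, reads with several matches and normalization, the methods were not given in the sources used here. Library preparation used a TruSeq RNA kit, per the labels.

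Identifiers were matched to GENCODE M21 symbols (17228 of 17488). Genes reaching 1 CPM in 4 or more of the 8 libraries (16157) entered a fit in limma 3.58.1, run in R 4.3.3 (variance trend, no covariate, two-sided). Benjamini-Hochberg adjustment was used with a threshold of 0.05. The code of the fit was also run on simulated counts in which few genes changed and all had the same dispersion. That setting differs from these data, so the run does not show how the test performs in them. Ratios and sums of paralogs were tested by exact permutation. CPM per kb used the union of annotated exons. Named were the 8 genes, the 3 machinery genes per role with the smallest adjusted p, Cenpa, Hjurp and the 2 genes most correlated with each of the 8. Genes named beyond this rule, such as Aifm2 and Pwwp2a, were picked after their values were seen. The genes, the lists and the setting without panobinostat libraries 3 and 4 were chosen with earlier results of these data known. Nothing in the labels says whether the animals of the groups were treated side by side. The sample names carry numbers that are lower for every vehicle animal than for any panobinostat animal. What these numbers stand for is not given, and a difference in cohort could not be told apart from the treatment.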

Additional observations from a re-analysis of the deposited data

How the results depend on the processing

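Settings tried were other filters (none, 5 CPM), other variance models, library weights, voom weights, 4 other scalings or pseudocounts, a stricter threshold (0.01), a 1.5-fold minimum change, and leaving out libraries. H2afz, H2afj and H2afy2 kept their direction and call under all of them. Against a 1.5-fold change, limma adjusted p was 1.00 for H2afv (-0.44), 0.188 for H2afx (-0.87), 0.438 for H2afy (-0.69) and 1.00 for H3f3a (-0.46), which left 3 of the 8 called, 2 of them lower. That test called 4988 genes (2802 higher, 2186 lower, against 10289, 5048 and 5241) and 16 machinery genes (1 higher, 15 lower, against 37, 3 and 34). H2afv lost its call without panobinostat libraries 3 and 4 (-0.44, limma adjusted p = 0.0628), with fewer libraries in the test and nearly the same log2 change. After quantile normalization H3f3a (-0.13) lost its call and the H3.3 ratio changed by -0.38 (exact permutation p = 0.0571), H2afy kept its call at -0.37, and 5 machinery genes were higher. Scaled to read totals, H3f3b was called (0.33), which made 2 of the variant genes higher, and 5 machinery genes were higher. Centred on medians, the H3.3 sum reversed (-0.069). Centring and scaling to read totals move all genes of a library by the same amount. Single genes and sums therefore shifted together under each, and the H3.3 ratio difference stayed at -0.68. Why quantile normalization changed that ratio was not tested. The median change of all genes was -0.022 with the deposited scaling. It was -0.12 after quantile normalization, 0.10 with read totals and -0.14 with centring.

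With 1 library left out in turn, the log2 changes ranged from -1.24 to -1.13 for H2afz, -0.49 to -0.33 for H2afv, -1.03 to -0.70 for H2afx, 1.05 to 1.30 for H2afj, -0.78 to -0.59 for H2afy, -2.56 to -2.34 for H2afy2, -0.50 to -0.41 for H3f3a and 0.18 to 0.25 for H3f3b. In each case 6 were lower and 1 higher. Ratio differences ranged from -0.79 to -0.68 (H2A.Z), -0.73 to -0.59 (H3.3) and 1.70 to 1.88 (macroH2A), without a test, since an exact permutation of 4 against 3 libraries cannot go below p = 0.0571. No paired analysis was possible because the labels give no number that links vehicle and panobinostat animals. Each gene had 231 to 27354 reads per library, and 4 tumours per group set the smallest exact p. Counting error was not compared with the spread between tumours.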
